A study of Mus spretus with 19 samples.

Results

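Livers of wild male Algerian mice (Mus spretus) from the lower course of the Domingo Rubio stream (DR1) were compared with livers from its upper course (DR6), on 7 of the 19 arrays of a study of 5 sites in southwest Spain. The comparison was defined by the labels: the 4 arrays of DR1 and the 3 arrays of DR6. The labels mark DR1 and DR6 as polluted, so neither is a control. They also describe a medium-course site (DR4, 4 arrays, polluted), a second polluted site away from the stream (PS, 4 arrays) and an unpolluted site (SOL, 4 arrays), which serve here only to place the values. Each site was 1 pool of RNA from 9 livers, labelled with Cy3 in separate reactions and hybridized to Agilent arrays with probes of 60 bases designed for the house mouse. The arrays of a site are thus technical repeats of 1 pool. Every p-value below measures technical spread only, without variation among animals, save in the fit with pools as units. Since 1 slide, scanned at once, carried all arrays of a site, effects of site and slide cannot be told apart.

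The liver stores and releases glucose and lipid, makes bile acids and most plasma proteins, and clears foreign compounds with enzymes of the cytochrome P450 family. Many of these genes follow the daily clock and the time since the last meal, and some differ between the sexes. Liver samples also carry macrophages, other blood cells and vessel cells, and can carry traces of neighbouring organs such as the pancreas.

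Levels are given as log2 of the signal over the array's 75th percentile, so that 0 is the level of that percentile on the same array. Differences are DR1 minus DR6 on this log2 scale, from limma, with the standard error (SE). The word called is used of a gene whose Benjamini-Hochberg adjusted p, over all genes, was under 0.05 and whose difference was at least 1, a 2-fold change. Where every array of the lower site was not well above background, the size is a bound and is written "at least", and its fitted difference has no measured size.

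The signal at the 75th percentile was between 186.1 and 285.2 on the DR1 arrays and between 129.3 and 143.2 on the DR6 arrays, and 52.5% to 57.2% of the DR1 gene spots and 53.3% to 54.9% of the DR6 gene spots were well above background. Saturated gene spots numbered 74 to 148 on the DR1 arrays and 49 to 56 on the DR6 arrays. A saturated spot gives only a lower limit of its signal. Arrays correlated across genes at r = 0.981 to 0.993 within DR1, at 0.994 to 0.995 within DR6 and at 0.968 to 0.976 between the sites. Hepatocyte genes marked the tissue as liver at both sites: the albumin gene Alb1 was saturated on all 4 DR1 and all 3 DR6 arrays, and Apoa1, an apolipoprotein, had a mean level of 8.01 in DR1 and 8.16 in DR6. None of the 35 measured hepatocyte markers was called, where 7.50% of all genes were called.

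The probes behind the differences that recur below are these, 5′ to 3′ in the mm8 build, to show what each array value measured. They are whole and have no part in capitals.
Csad (chr15:102005466-102005525, minus strand): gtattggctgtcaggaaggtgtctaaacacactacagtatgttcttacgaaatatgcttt
Lepr (chr4:101287267-101288768, plus strand): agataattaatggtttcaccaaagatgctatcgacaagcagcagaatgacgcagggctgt
Adra2a (chr19:54102182-54102241, plus strand): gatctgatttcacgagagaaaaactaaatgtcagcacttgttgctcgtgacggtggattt
Scd1 (chr19:44448208-44448267, minus strand): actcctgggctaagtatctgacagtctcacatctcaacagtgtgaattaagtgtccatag
Per3 (chr4:149848947-149849006, minus strand): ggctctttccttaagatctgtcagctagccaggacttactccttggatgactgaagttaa
Arntl (chr7:113104645-113104704, plus strand): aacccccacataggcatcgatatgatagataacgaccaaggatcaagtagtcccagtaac
Cyp4a12 (chr4:114830670-114830729, plus strand): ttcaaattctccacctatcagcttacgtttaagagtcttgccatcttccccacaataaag
Slc30a10 (chr1:187169016-187169075, plus strand): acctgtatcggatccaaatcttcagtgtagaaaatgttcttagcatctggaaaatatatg
The Lepr probe spans 1502 bases of the genome, more than its own 60, and so joins parts of more than 1 exon. The files give no exon or transcript position for the other probes, and the match of each probe to the Mus spretus sequence was not tested.

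Of 16344 genes and transcripts with a value at both sites, 1226 were called (7.50%), 533 of them higher in DR1 (3.26%) and 693 lower (4.24%). Among the called genes, 806 carry a gene symbol. The median difference over all genes was -0.0015 and the median size 0.34. For 1176 of the called genes no DR1 array overlapped any DR6 array, which the rule for a call itself favours. Of all genes tested 7832 (47.9%) did not overlap. Only a bound was available for 253 of the called genes. Of the called genes 43.5% were higher in DR1, against 55.4% (673 higher, 542 lower) when arrays were scaled to their median, which moved the median of all genes to 0.093. With normexp background correction and quantile scaling 304 genes were called, 107 higher and 197 lower in DR1. That correction adds an offset of 50 to each signal, which by construction shrinks log2 differences of dim genes. When each pool was taken as 1 unit, with the spread among SOL, PS and DR4 as the error, limma called 0 genes, and 863 had an unadjusted p under 0.05. A share of 0.05 of genes would pass that threshold if none differed. With 1 value per site and differences among sites as its error, this fit had little power to call any gene.

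**Figure D1:**
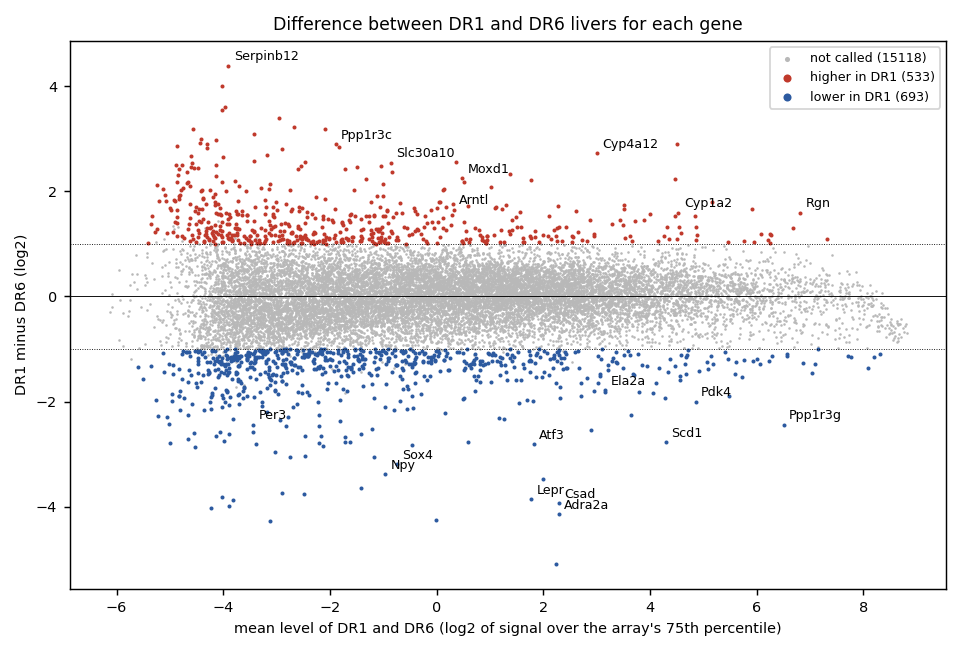
Difference DR1 minus DR6 (log2, vertical axis) against the mean level of both sites (log2 of the signal over the array's 75th percentile, horizontal axis) for each gene, with 533 genes higher in DR1 in red, 693 lower in blue and the rest in grey. Csad, Lepr and Adra2a lie near -4 at levels around 2 and Cyp4a12 at 2.73.

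Base composition of the probe moved with the difference. Genes read by probes with at least 50% G and C had a median of -0.22, and 53 of 3529 were called higher in DR1 and 232 lower. At 35% to 38.3% G and C the median was 0.14, and 212 of 4640 were called higher and 125 lower. Across all genes the correlation of the difference with G and C content was -0.216, a description over probes that share the same arrays. Removing the median deviation of probes with like composition from each array left 1137 called genes, 1005 of them shared with the 1226. Of the genes named here Aurkb, Cdc20, Iigp1, Ins1, Lect2, Ntrk2, Sult1e1 and Tff2 were not called with it. Its part in single differences was not tested.

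**Figure D2:**
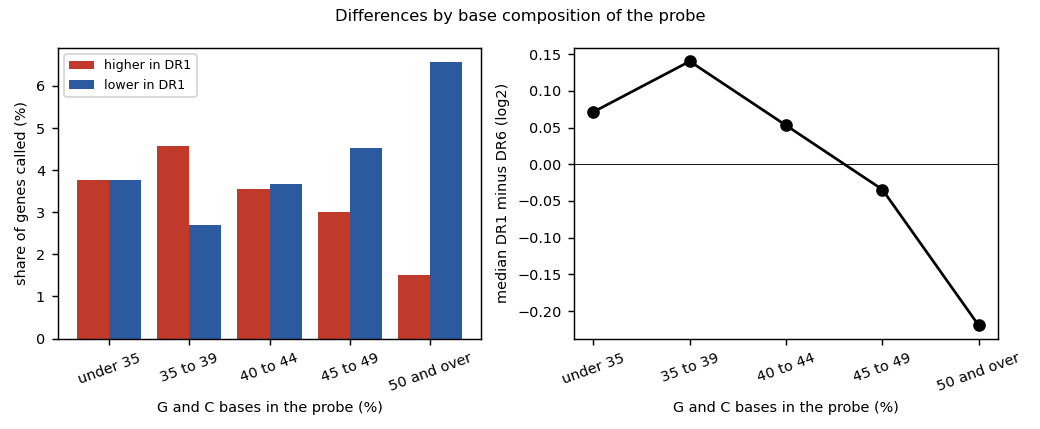
Share of genes called higher (red) or lower (blue) in DR1 (percent, left) and median DR1 minus DR6 (log2, right), by the share of G and C bases in the probe. The median declines to -0.22 for probes with at least 50% G and C, after 0.14 for those at 35% to 38.3%.

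Several genes of unlike function had large measured falls in DR1. Csad, cysteine sulfinic acid decarboxylase, which makes the precursor of taurine, had levels of 0.43, 0.29, 0.07 and 0.52 on the DR1 arrays, against 4.24, 4.27 and 4.27 on the DR6 arrays. It was 15.3-fold lower in DR1 (difference -3.94, SE 0.085, adjusted p = 4.89e-15, limma), and its other probe gave -3.16. The DR1 arrays lay far below the DR6 arrays with no overlap, and Csad was also lower at the 3 other sites than at DR6, at 0.96 in DR4, 1.95 in PS and 1.24 in SOL. Of 27 measured enzymes of taurine and sulfur amino acid metabolism Csad was the only 1 called lower (median 0.03), and Mpst, a mercaptopyruvate sulfurtransferase, was the only 1 called higher, by 2.05. Among all genes 4.24% were called lower and 3.26% higher.

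Lepr, the leptin receptor, had levels of -0.22, -0.20, -0.08 and -0.14 in DR1, against 3.75, 3.66 and 3.70 in DR6, a difference of -3.86 (SE 0.047, adjusted p = 2.38e-18), and -2.22 with its other probe. Adra2a, an adrenergic receptor, had levels of 0.27, 0.25, 0.23 and 0.15 in DR1, against 4.22, 4.47 and 4.41 in DR6, and its 3 probes gave differences from -4.14 to -3.77. Both genes were closer to DR6 than to DR1 in the medium course, with mean levels in DR4 of 2.45 for Lepr and 3.63 for Adra2a, against 0.01 and -0.18 in SOL. Npy, the neuropeptide Y gene, was lower by 3.38 in DR1 than in DR6 and highest of all in DR4 (mean levels of -2.65 in DR1, 2.42 in DR4 and 0.73 in DR6). Sox4, a transcription factor gene, had a mean level of -2.34 in DR1 and 0.86 in DR6, a difference of -3.20. Cacnb4, a calcium channel subunit, differed by -3.05, with 2 of 4 DR1 arrays well above background.

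Of the 26 measured T and NK cell markers 0 were called higher and 1 lower (median -0.10), against 3.26% and 4.24% of all genes. The 1 was Gzmb, a granzyme, at -1.09, not called with median scaling or without DR6 replicate 1. In bulk RNA, fewer cells of a type and less RNA per cell cannot be told apart, here and for the other cell types below. Ddx25, an RNA helicase of the germ line, fell by 3.47, with levels of 0.68, -0.62, 0.47 and 0.50 in DR1, against 4.13, 3.49 and 3.55 in DR6. Its means in DR4, PS and SOL were 3.78, 2.92 and 3.53, so DR1 alone stood apart.

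The Ddx25 probe holds a run of alternating G and A, printed in capitals, as does the probe of Trim55, chosen after its values were seen.
Ddx25 (chr9:35291621-35291680, minus strand): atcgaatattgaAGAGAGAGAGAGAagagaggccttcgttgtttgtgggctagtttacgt
Trim55 (chr3:19836634-19836693, plus strand): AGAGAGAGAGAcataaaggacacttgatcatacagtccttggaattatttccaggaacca
Letters GAGAGAGAGA, searched in the probe as written, occur in 15 of 23458 kept probes (0.0639%), and 14 genes are read by one. Of these 14 genes, 5 were called lower in DR1 and 0 higher, against 4.24% lower and 3.26% higher among all genes. Ddx25 and Trim55 are among the 5, so the count partly restates the choice of these genes. The median of the 14 was -0.60, and their median DR4 minus DR6 was -0.07. The reverse complement TCTCTCTCTC occurs in 2 kept probes. Whether the run takes part in these differences was not tested.

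The other large falls rest on bounds, since no DR1 array was well above background: Cdx2, an intestinal transcription factor, was at least 4.38-fold lower (mean levels of -6.25 in DR1 and -2.22 in DR6), Pln at least 5.49-fold, Defcr23 at least 5.53-fold, Usp26 at least 4.71-fold and Pkd1l2 at least 2.39-fold. All of them were well above background on the 3 DR6 arrays, as the rule for naming them requires.

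Among the largest rises, Cyp4a12, a fatty acid hydroxylase known for its male-biased expression in mouse liver, was the brightest. Its levels were 4.33, 4.51, 4.38 and 4.28 in DR1, against 1.61, 1.74 and 1.60 in DR6, a 6.62-fold rise (difference 2.73, SE 0.074, adjusted p = 1.03e-13). DR4 and PS lay between them at 3.90 and 3.24, and SOL below both at 1.27. Ppp1r3c at 2.90 and Chi3l3 at 2.85, both described below, had larger measured differences at lower levels. Slco1c1, a thyroid hormone and organic anion transporter, rose by 2.80, Csta, a protease inhibitor, by 2.68 and Myh4, a muscle myosin, by 2.55. Slco1c1 and Csta were well above background on 1 of 3 DR6 arrays. Bounds apply to Adh6-ps1 (at least 7.83-fold higher), Chi3l4 (7.22-fold), Asprv1 (4.73-fold), Mlf1ip (3.64-fold), Igk-V19-14 (2.75-fold), Ckap2 (2.73-fold), Crct1 (2.31-fold) and Calml3 (2.19-fold), all at least that much and all with no DR6 array well above background. Asprv1, Crct1, Calml3, Csta and Serpinb12 are known from skin and other squamous epithelia.

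Serpinb12 had the largest fitted rise, 4.39, but 1 array decided its size: its levels were 2.07, -3.22, -2.81 and -2.87 in DR1, against -6.35, -5.58 and -6.36 in DR6. All 4 DR1 arrays were above the DR6 arrays, none of which was well above background, and the bound over all 4 was at least 5.32-fold. Without DR1 replicate 1 it was at least 2.22-fold. Chi3l3 and Chi3l4 are near-identical paralogs whose signals may not be separate.

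**Figure D3:**
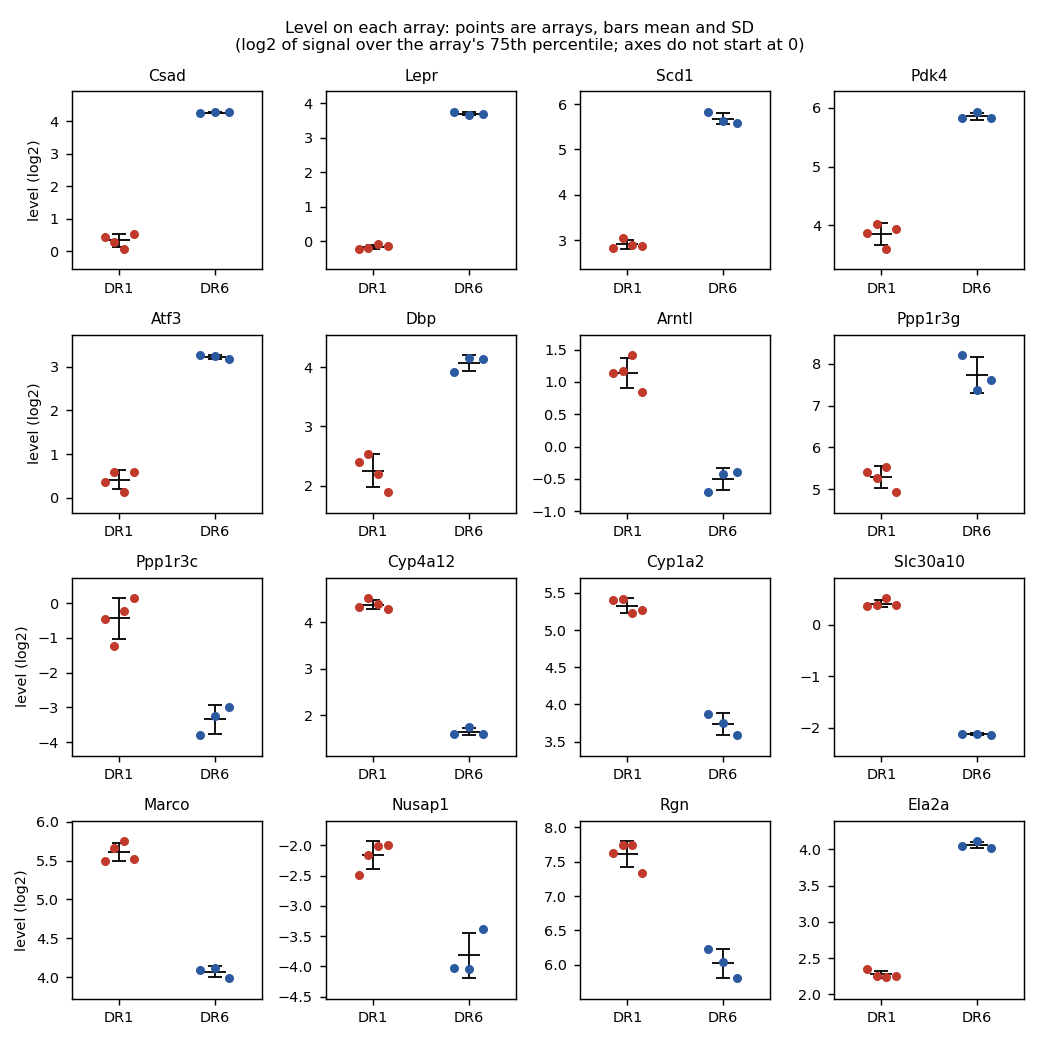
Level of 16 genes on each array (log2 of the signal over the array's 75th percentile), DR1 in red and DR6 in blue, with the mean and SD as bars. In all 16 the 4 DR1 arrays lie entirely above or below the 3 DR6 arrays. The rule for naming the largest rises and falls requires such separation, and 47.9% of all genes tested show it.

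Most circadian clock genes that were called were lower in DR1, and the activator Arntl was higher. Of 21 clock genes measured, 1 was higher and 5 lower in DR1 (median -0.57), and the arrays of 17 did not overlap, against 47.9% of all genes. Among all genes 3.26% were called higher and 4.24% lower. Dbp, a transcription factor of the clock's output, had levels of 2.39, 2.53, 2.20 and 1.90 in DR1, against 3.91, 4.16 and 4.13 in DR6, a difference of -1.81 (SE 0.29, adjusted p = 7.64e-05). Per3 was lower by 2.44, with 1 of 4 DR1 arrays well above background, and Per1, which with Per3 belongs to the period family of clock repressors, by 1.18. Bhlhb2, a repressor also known as Dec1, fell by 1.52 and Ccrn4l, nocturnin, by 1.55. Arntl, the activator BMAL1, was the 1 gene of the list called higher, with levels of 1.14, 1.17, 1.42 and 0.85 in DR1, against -0.70, -0.43 and -0.39 in DR6, a difference of 1.65 (SE 0.42, adjusted p = 0.00377). In DR4 the mean was 2.05 for Arntl and 0.88 for Dbp, farther from DR6 than the DR1 means of 1.14 and 2.26. An hour of sampling is not given in the sources used here.

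Genes of fatty acid oxidation and other targets of PPARα, the receptor that responds to fatty acids in fasting, included 7 of 49 called lower in DR1 and 0 higher. Among all genes 4.24% were called lower and 3.26% higher. The median was -0.54, and 40 of the 49 differences were negative. Pdk4, a kinase that holds back glucose oxidation, had levels of 3.87, 4.03, 3.60 and 3.94 in DR1, against 5.82, 5.93 and 5.83 in DR6 (difference -2.0, SE 0.11, adjusted p = 3.86e-10). Acot2 and Acot3, acyl-CoA thioesterases, fell by 1.93 and 1.51, and Cidec, a lipid droplet protein, by 1.54. Cyp8b1, the sterol 12-hydroxylase of bile acid synthesis, fell by 1.64. Fgf21, a fasting hormone and PPARα target, was at 1.35 ± 0.69 in DR1 (SD, n = 4) and 1.12 ± 0.09 in DR6 (SD, n = 3), with overlapping arrays.

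In fatty acid synthesis 6 of 31 genes were called lower in DR1 and 0 higher (median -0.26), against 4.24% and 3.26% of all genes. Scd1, the desaturase that makes oleate, had levels of 2.82, 3.05, 2.88 and 2.87 in DR1, against 5.83, 5.64 and 5.58 in DR6, a 6.84-fold fall (difference -2.77, SE 0.070, adjusted p = 3.86e-14). DR6 stood apart in Scd1, since DR4, PS and SOL had means of 1.41, 1.12 and 2.01, all below DR1. Dgat1, which completes triglyceride synthesis, fell by 1.52, Pklr, the liver pyruvate kinase, by 1.41 and Slc25a1, the mitochondrial citrate carrier, by 1.36. Fasn and Thrsp did not reach a 2-fold change, at -0.73 and -0.88. In cholesterol synthesis 2 of 26 were called lower and 0 higher (median -0.43). Lss, lanosterol synthase, was called at -1.05, and Idi1, an isomerase of the pathway, was at 0.23, with 2 of 3 DR6 arrays measured and -0.22 from its other probe. The Lss call was lost with median scaling and with the mean of its 3 probes.

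Glucose metabolism showed opposite moves in glycogen genes. Of 43 genes of gluconeogenesis and glycolysis 7 were lower in DR1 and 1 higher (median -0.33), against 4.24% and 3.26% of all genes. Ppp1r3g, a glycogen-targeting subunit of protein phosphatase 1 linked to the response to feeding, had levels of 5.41, 5.27, 5.54 and 4.93 in DR1, against 8.21, 7.38 and 7.61 in DR6, a 5.43-fold fall. Ppp1r3c, another subunit of the same family, went the other way, with levels of -0.45, -1.23, -0.23 and 0.14 in DR1, against -3.80, -3.24 and -2.98 in DR6, a 7.45-fold rise, and both of its probes gave at least 2.64. Snf1lk, the salt-inducible kinase SIK1, fell by 2.32 and Txnip, an inhibitor of glucose uptake, by 1.47. Mean levels of Ppp1r3g in DR4, PS and SOL were 7.07, 3.45 and 4.72, so DR4 was near DR6.

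Immediate early genes, which respond within minutes to stress or growth signals, were called lower in 6 of 27 cases and higher in 1 (median -0.28). Among all genes 4.24% were called lower and 3.26% higher. Atf3 had levels of 0.37, 0.59, 0.13 and 0.59 in DR1, against 3.26, 3.24 and 3.18 in DR6, a 7-fold fall (difference -2.81, SE 0.087, adjusted p = 5.21e-13). Btg2, an antiproliferative gene, fell by 2.25 with the probe used and by 0.93 to 2.25 over its 3 probes. Jun fell by 1.94, Klf6 by 1.79 and Fosl2 by 1.22, the last at -0.07 with its other probe. Egr1 rose, with levels of 3.1, 2.37, 3.05 and 2.93 in DR1, against 1.46, 1.25 and 1.32 in DR6. Fos at 0.53, Myc at -0.65 and Nr4a1 at -0.05 were not called, and the 3 probes of Myc ranged from -1.73 to -0.65.

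The counts in the other stress lists stand beside 3.26% of all genes called higher and 4.24% lower. The inducible HSP70 genes Hspa1a and Hspa1b fell by 1.70 and 1.80, the only 2 of 41 heat shock genes and cochaperones called, and the close likeness of the pair means their signals may not be separate. Of 28 p53 and growth arrest genes 1 was higher and 3 lower (median -0.06): Phlda3, an inhibitor of AKT, rose by 1.35, and Btg2, Plk3 and Gadd45g fell, Plk3 by 1.43 and Gadd45g by 1.10. Without the DR1 replicate 4 array Gadd45g was no longer called. Cdkn1a, the cell cycle inhibitor p21, was at 0.54, Trp53inp1 at -0.39 and Sesn1 at 0.07. In the ER stress and amino acid response 2 of 39 rose, Sdf2l1 by 1.60 and Hyou1 by 1.15, both helpers of ER protein folding, and 2 fell, Nupr1 by 1.41 and Phgdh, of serine synthesis, by 1.08, a call lost with median scaling. The antioxidant enzymes held 0 calls in 25, and Hmox1, heme oxygenase, was at -0.08.

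Genes that handle foreign compounds were called in both directions. Their counts stand beside 3.26% of all genes called higher and 4.24% lower. Cyp1a2, a P450 enzyme induced through the aryl hydrocarbon receptor (AHR), had levels of 5.41, 5.42, 5.23 and 5.27 in DR1, against 3.87, 3.76 and 3.59 in DR6, a 3.02-fold rise (difference 1.59, SE 0.071, adjusted p = 4.17e-11), and 1.36 with its other probe. Nqo1, a quinone reductase shared by the AHR and NRF2 lists, rose by 1.30. These were the only 2 of 5 AHR genes called (median -0.20). Cyp1a1 was at -0.77 and Tiparp at -0.68. Of 30 NRF2 targets 1 rose (Nqo1) and 1 fell, Abcc4, an exporter, by 1.66. Of 37 targets of CAR and PXR, the drug-sensing receptors, 2 rose and 1 fell: Cyp2b10 rose by 1.42 (0.55 with its other probe) and Cyp3a25 by 1.21, while Cyp2c65 fell by 1.35. Cyp3a11 was at -0.36, saturated on 2 DR1 arrays. Among conjugating enzymes Gsta4 rose by 1.26 (1 of 21 glutathione S-transferases, 0 lower) and Ugt1a9 fell by 1.43, while Sult1e1 was at least 1.77-fold higher, a call lost without the DR1 replicate 4 array.

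Metal transporters were called in both directions, where 3.26% of all genes were called higher and 4.24% lower. Of 26 genes on this list 2 were higher and 3 lower in DR1 (median 0.27), against 1 in each direction with normexp and quantile scaling. Slc30a10, an exporter of manganese, had levels of 0.37, 0.38, 0.52 and 0.39 in DR1, against -2.12, -2.11 and -2.14 in DR6, a 5.81-fold rise (difference 2.54, SE 0.090, adjusted p = 2.83e-12). Its second probe gave 2.0, and means of 0.17, -0.49 and 0.10 in DR4, PS and SOL put DR6 apart from the other 4 sites. Slc11a2, the iron and divalent metal transporter DMT1, rose by 1.70, but its 3 probes ranged from -0.68 to 1.70. The zinc importers Slc39a5 and Slc39a4 fell by 2.35 and 1.25, Slc39a5 with 2 of 4 DR1 arrays well above background. Slc30a2, a zinc exporter, was at -1.01, a call lost without any one of DR1 replicates 1, 2 and 3 or DR6 replicate 1, and with median or quantile scaling.

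Mt1 and Mt2 are metallothioneins, the classic metal-induced genes. Mt1 had levels of 6.87, 6.62, 7.12 and 7.16 in DR1, against 6.42, 6.52 and 6.79 in DR6, and the arrays overlapped (difference 0.37, adjusted p = 0.0188). The other Mt1 probe gave a difference of 0.007. Mt2 was fitted at -0.12, but 3 of 4 DR1 arrays were saturated, so the size of its difference was not measured. Of 26 iron handling genes 2 were higher and 0 lower, against 3.26% and 4.24% of all genes. The 2 were Slc11a2 and Lcn2, a siderophore-binding protein, at least 1.84-fold higher with 3 of 4 DR1 arrays well above background. Hamp1, the iron hormone hepcidin, was at 6.88 ± 0.39 in DR1 (SD, n = 4) and 6.66 ± 0.07 in DR6 (SD, n = 3), with overlapping arrays, and Tfrc, the transferrin receptor, differed by 0.27.

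Of 24 male-biased liver genes 4 were called higher in DR1 and 0 lower (median 0.42), in pools of males only. Counts of sex-biased genes stand beside 3.26% of all genes called higher and 4.24% lower. After Cyp4a12, Moxd1, a monooxygenase-like gene, had levels of 1.48, 1.72, 1.48 and 1.73 in DR1, against -0.70, -0.65 and -0.57 in DR6. Scara5, a ferritin receptor, rose by 1.61, but its second probe gave -1.04. Mup5, a major urinary protein of a multigene family whose members may share signal, rose by 1.19. Elovl3 was at -0.55 and Cyp7b1 at 0.63, with 1 of 3 DR6 arrays measured for Cyp7b1. Of 28 female-biased genes 3 were called higher and 1 lower (median -0.16), against 1 higher without DR1 replicate 4. Rarres1 rose by 1.53, Sult1e1 as above, and Acot3 fell, while Ntrk2 was dim throughout, with 0 of 7 arrays well above background, and has no fold. Hao3, also female-biased, was at -0.38.

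Bile acid genes were called in both directions. Their counts, and those of the zonation genes below, stand beside 3.26% of all genes called higher and 4.24% lower. Ostb, a subunit of the basolateral bile acid exporter, had levels of -0.02, -0.48, -0.14 and -0.17 in DR1, against -2.17, -2.79 and -2.38 in DR6, a 4.72-fold rise, and Akr1d1, a reductase of bile acid synthesis, rose by 1.44. Abcc4 and Cyp8b1 fell, as given above, and Abcg8, a sterol exporter, fell by 1.28, so that 2 of 32 were higher and 3 lower (median 0.06). Cyp7a1, the rate-limiting enzyme of the pathway, was at 3.81 ± 0.18 in DR1 (SD, n = 4) and 3.95 ± 0.04 in DR6 (SD, n = 3), with overlapping arrays. The other Cyp7a1 probe gave a difference of -0.68. Among zonation genes, which mark the position of a hepatocyte along the liver lobule, 5 of 26 were higher and 0 lower (median -0.11), against 3 higher with normexp and quantile scaling. Rgn, regucalcin, had levels of 7.62, 7.74, 7.74 and 7.34 in DR1, against 6.22, 6.04 and 5.80 in DR6, and Tbx3 rose by 1.15. Lgr5, a Wnt co-receptor of the cells around the central vein, was at least 1.73-fold higher, and Lect2 was at 1.02, a call lost without DR1 replicate 2 or 4.

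The macrophage and neutrophil genes that were called were all higher in DR1, where 3.26% of all genes were called higher and 4.24% lower. Of 28 Kupffer cell and macrophage markers 3 were called higher and 0 lower (median 0.46), against 5 higher with median or quantile scaling and without DR6 replicate 3. Marco, a scavenger receptor of macrophages, had levels of 5.50, 5.66, 5.75 and 5.52 in DR1, against 4.1, 4.13 and 3.99 in DR6 (difference 1.54, SE 0.085, adjusted p = 5.85e-10). Lyzs, lysozyme, rose by 1.32, and Mpeg1 by 1.06, a call lost without DR1 replicate 2 and with the mean of its probes. The log2 of the summed level of the 28 ran from 8.07 to 8.30 on the DR1 arrays and from 7.48 to 7.57 on the DR6 arrays, but the defining genes split, with Emr1 at 0.56, Clec4f at 0.21 and Cd68 at -0.62, none called.

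Of 13 neutrophil markers 6 were higher and 0 lower (median 0.71), against 3.26% and 4.24% of all genes. With normexp and quantile scaling 2 of the 13 were called higher and the median was 0.28. S100a9, which forms calprotectin with S100a8, had levels of 3.11, 3.03, 3.09 and 3.23 in DR1, against 2.05, 1.90 and 1.93 in DR6. S100a8 rose by 1.12, a call lost without DR1 replicate 4 or DR6 replicate 1. Chi3l3, a chitinase-like protein of myeloid cells, had levels of -0.33, -0.32, -0.49 and -0.46 in DR1, against -3.04, -3.47 and -3.23 in DR6, a 7.2-fold rise. Stfa1, a stefin of granulocytes, was at least 2.19-fold higher, and Lcn2 at least 1.84-fold. The summed level ran from 3.63 to 3.95 in DR1 and from 2.95 to 3.08 in DR6 on the log2 scale, and the defining gene Ngp did not pass the filter.

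Interferon response genes had 3 of 39 called higher, 0 lower and a median of 0.57, against 3.26% of all genes higher and 4.24% lower. Under normexp and quantile scaling 1 of 39 was called higher, with a median of 0.32. Ifi47, a GTPase induced by interferon γ, had levels of 0.43, 0.50, 0.96 and 1.00 in DR1, against -0.95, -1.05 and -0.77 in DR6. Mx2, an antiviral GTPase, rose by 1.35 and Iigp1 by 1.07. Against the unpolluted site the order differed by gene: mean levels were 0.72 in DR1 and 0.77 in SOL for Ifi47, -1.07 in DR1 and -0.27 in SOL for Mx2, and 6.75 in DR1 and 6.36 in SOL for Iigp1.

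Acute phase proteins were mixed, with 5 of 38 higher, 2 lower and a median of 0.11. Counts here and in the next lists stand beside 3.26% of all genes called higher and 4.24% lower. A2m rose by 1.71, Steap4 by 1.42, Saa4 by 1.19 and Saa3 by 1.09, and Serpina3n and Socs3 fell by 1.14 and 1.11. Saa1 was saturated on all arrays of both sites and has no fold. Complement and coagulation had 3 of 46 higher and 0 lower (median 0.22): C8a, a chain of the membrane attack complex, at 1.32, C8g at 1.07 and Proz, protein Z, at 1.04. C8g was no longer called without DR6 replicate 3, and Proz not without DR1 replicate 2 or 3 or DR6 replicate 3. The 3 probes of Proz ranged from -0.27 to 1.04. With normexp and quantile scaling 1 of the 46 was called higher. Igj, the joining chain of plasma cell antibodies, rose by 1.52, the 1 of 9 B cell and plasma cell markers called, while Cd79b, of the B cell receptor, was at -0.31. Hba-a1, of red cells, was at -0.05, and 0 of 23 erythroid genes were called.

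Of 39 cell cycle genes 7 were called higher in DR1 and 0 lower, against 3.26% and 4.24% of all genes. The median was 0.55, and 35 of the 39 differences were positive. Nusap1, of the mitotic spindle, had levels of -2.50, -2.16, -2.02 and -1.99 in DR1, against -4.03, -4.04 and -3.38 in DR6, where 1 of 3 arrays was well above background. Rrm2, of ribonucleotide reductase, rose by 1.37, Cks2 by 1.26 and Cdc20 by 1.09, the last not called without DR1 replicate 2 or DR6 replicate 3. Aurkb was at least 2.10-fold higher, a call lost without DR1 replicate 3 or DR6 replicate 3. With normexp and quantile scaling 1 of the 39 was called.

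**Figure D4:**
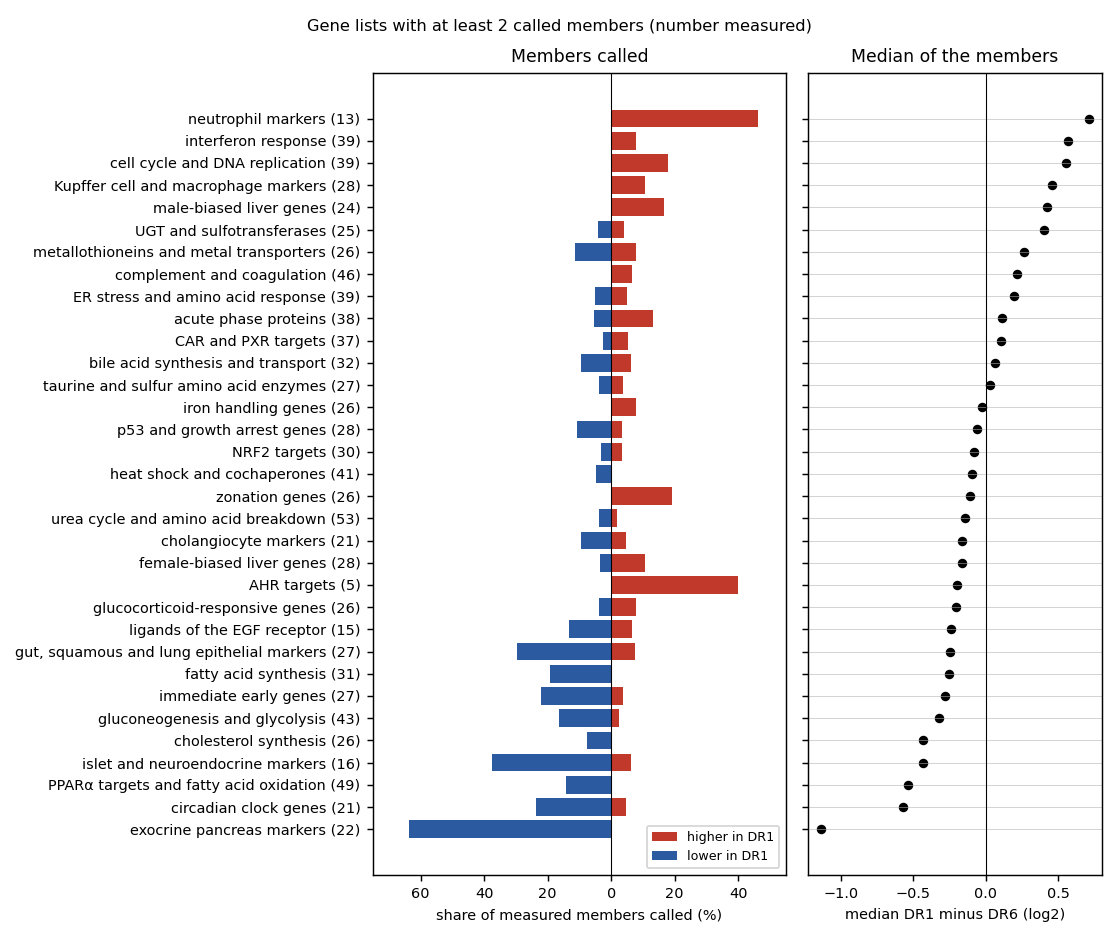
For each gene list with at least 2 called members, the share of measured members called higher (red, to the right) or lower (blue, to the left) in DR1, in percent, and the median difference DR1 minus DR6 (log2) on the right; the number measured is in brackets. Neutrophil markers have the highest median, 0.71, and exocrine pancreas markers the lowest, -1.14.

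Markers of the exocrine pancreas had the lowest median of the 48 lists. Of 22 measured, 14 were called lower in DR1 and 0 higher, against 4.24% of all genes lower, with a median of -1.14. With normexp and quantile scaling 10 were called lower. All 22 differences were negative, and no array of DR1 overlapped DR6 for any of the 22, where 47.9% of all genes had no overlap. Ela2a, pancreatic elastase, had levels of 2.35, 2.25, 2.25 and 2.25 in DR1, against 4.05, 4.11 and 4.02 in DR6, a 3.45-fold fall. Ctrb1, chymotrypsinogen, fell by 1.90, Pla2g1b, the pancreatic phospholipase, by 1.65, Prss3, a trypsinogen of a multigene family, by 1.37 and Gp2, of zymogen granules, by 1.31. Of the other defining genes Cel fell by 1.28, and Cpa1 and Pnlip were at -0.96 and -0.98.

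The log2 of the summed level of these 22 ran from 10.45 to 10.60 on the DR1 arrays and from 11.62 to 11.72 on the DR6 arrays. Relative to the mean of the 5 sites, the median of the list was 0.28 in DR1, -1.91 in DR4 and 1.41 in DR6, with -0.86 in PS and 1.18 in SOL, so the order does not follow the stream. Reg3a, a lectin secreted by pancreas and gut, went against the exocrine genes, with a mean level of 1.18 in DR1 and -0.07 in DR6 (difference 1.25), and -3.84 in DR4 and -4.05 in SOL. It was the 1 of 6 Reg lectins called, where 7.50% of all genes were called.

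Several islet and intestinal genes were also lower, where 4.24% of all genes were called lower and 3.26% higher. Of 16 islet and neuroendocrine markers 6 were lower and 1 higher, with a median of -0.43: Gcg, glucagon, fell by 2.26, Ppy by 1.82, Ins2 by 1.41 and Ins1 by 1.28. Pcsk1, a prohormone convertase, was at -1.91, a call lost without any one of DR1 replicates 3 and 4 and DR6 replicates 1, 2 and 3. Chgb, chromogranin B, rose instead, with levels of -0.23, -0.23, -0.27 and -0.34 in DR1, against -2.59, -2.72 and -2.86 in DR6. None of the 6 falls was called with normexp and quantile scaling. Of 27 gut, squamous and lung epithelial markers 8 were lower and 2 higher (median -0.25): the defensins of Paneth cells Defa1 and Defcr6 fell, Defa1 by 3.76 with 2 of 4 DR1 arrays well above background and Defcr6 at least 9.17-fold, and Tff3, Agr2 and Tff2, of mucus-secreting cells, by 1.39, 1.14 and 1.12. Defa1, Defcr6 and Defcr23 are related defensins whose signals may not be separate. Lor, loricrin of the skin, rose by 1.71 and Krt4 was at least 1.16-fold higher, with 1 of 4 DR1 arrays well above background. For this list 2 genes were lower and 1 higher (median -0.12) with normexp and quantile scaling, and 5 were lower with median scaling, with quantile scaling, without DR1 replicate 1 and without DR6 replicate 3. The part that tissue other than liver has in these differences was not tested.

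**Figure D5:**
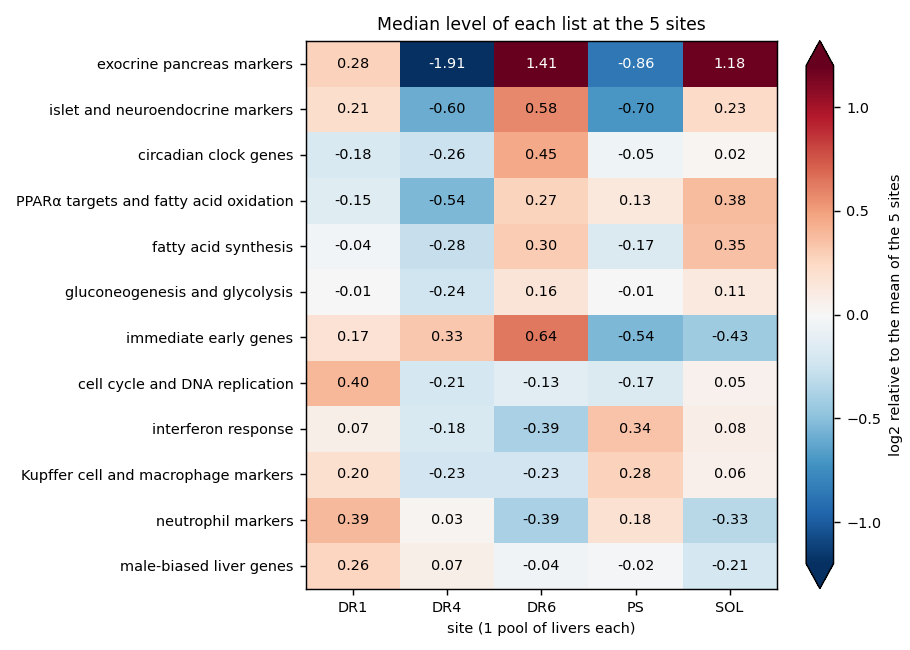
Median level of the members of 12 gene lists at each site (log2 relative to the mean of the 5 sites; columns DR1, DR4, DR6, PS and SOL, each 1 pool). Exocrine pancreas markers run from -1.91 in DR4 to 1.41 in DR6 with DR1 at 0.28, and immediate early genes are highest in DR6 at 0.64.

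Further single genes of the lists were as follows, with counts to be read beside 3.26% of all genes called higher and 4.24% lower. Aass, of lysine breakdown, fell by 1.46 on 3 of 4 DR1 arrays measured, and Ddc, DOPA decarboxylase, rose by 1.46, in a list of 53 urea cycle and amino acid genes with 1 higher and 2 lower (median -0.14). Btc, betacellulin, a ligand of the EGF receptor, fell by 1.36 and Ereg was at least 2.09-fold lower, while Areg was at least 2.22-fold higher, 1 of 15 ligands higher and 2 lower (median -0.24). Car3, carbonic anhydrase 3, was called at 1.12 but its second probe gave 0.04. Cyp26a1, which degrades retinoic acid, was at 1.05, the 1 of 28 retinoid genes called, and that call was lost without DR1 replicate 2 or DR6 replicate 2 or 3. Sgk2 rose by 1.46 among 26 glucocorticoid-responsive genes, of which 2 were higher and 1 lower (median -0.21). Of 21 cholangiocyte markers 1 was higher and 2 lower (median -0.16), Sox9 at 1.01, called only while DR1 replicate 2 and DR6 replicates 2 and 3 were all present.

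Lists of basic cell functions, of structural cells and of MHC class II genes held no calls, where 7.50% of all genes were called. The counts were 0 of 65 oxidative phosphorylation genes, 0 of 64 ribosomal proteins, 0 of 35 proteasome subunits, 0 of 41 collagens and stellate cell markers, 0 of 25 endothelial markers and 0 of 10 MHC class II genes. Their medians were 0.13, 0.02, 0.09, -0.12, -0.06 and 0.27 in that order. At a share of 7.50% the shorter of these lists can easily hold 0 calls.

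The medium-course site, DR4, was set beside these differences. Of the 533 genes higher in DR1, DR4 had a mean between DR1 and DR6 for 362, above DR1 for 96 and below DR6 for 75. Of 692 genes lower in DR1 with a value at all sites, DR4 was between for 457, below DR1 for 158 and above DR6 for 77. DR6 had the lowest mean of the 5 sites for 352 of the 533 higher genes and the highest for 521 of the 692 lower genes, while DR1 had the highest mean for 318 and the lowest for 377. These counts describe genes chosen by the difference between DR1 and DR6, which favours such extremes and also a DR4 mean between them. A gradient along the stream was not tested. Genes called were 5.15% between DR1 and DR4 and 6.16% between DR4 and DR6, and 6.08% between DR1 and SOL and 6.95% between DR6 and SOL, comparisons that share arrays with the one above.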

How the data were processed

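Liver RNA pools, 1 per site, were measured on 19 one-colour arrays, of which 4 of DR1 and 3 of DR6 form the comparison. Per the file headers, the deposited scanner files hold each spot's linear intensity (processed, mean and local background) and flags of 0 or 1; per the submitters' processing notes the authors used Agilent Feature Extraction 9.5.3.1, and did not scale arrays to each other. The authors' deposited value table holds the same intensity rounded, unscaled, with column medians from 9.72 to 24.8 and a largest relative difference of 0.497%. Columns of samples outside the series number 0. The DR1 files list the mm7 build, unlike those of the other sites. They name 5.84% of gene spots differently, so names came from the DR6 files (mm8 annotation) through the probe. A changed name is carried by 97 called genes.

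Values here are log2 processed signal less the array's 75th percentile over gene spots. Flagged outliers were dropped, and repeat spots of a probe were averaged. Probes passed if 3 or more arrays of any site were well above background, which left 23458 probes, and the brightest kept probe stood for each of 16346 genes. Differences come from limma 3.58.1 (R 4.3.3), with site means estimated over the 19 arrays together (14 residual degrees of freedom, two-sided). The fit was tested on simulated data. A bound sets the mean of the brighter site against, per array, the higher of the dim value and the lowest signal well above background. Precision is limited by how few arrays there are.

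The comparison, the 48 gene lists and the rule for named genes were chosen with earlier results of these data known, so lists are described by counts and medians and not tested. Named genes are the 15 largest rises and 15 largest falls among called genes with a symbol, bright enough on every array of the higher site and not overlapping; up to 5 called list members in each direction; called members against their list's median; and a fixed set of liver genes. A few genes that this rule names are not reported here. Cel, Cpa1, Pnlip and other defining markers are named as such. Alternatives covered scaling, background, filter, probe choice, array left out, replicate block, pools as units and, added after seeing the data, a correction for probe composition.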

Additional observations from a re-analysis of the deposited data

Results flagged for a closer look

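Within the 4 DR1 arrays, 1 array stood apart from the others in 12 of 168 sets of values by Dixon's test (7.14%), each a named gene. Chance flags about 1 in 20 independent groups. These sets share the same 4 arrays and hold genes chosen by rule, so that rate cannot judge the count. The ratio of the gap to the range was 0.922 for Serpinb12, where replicate 1 was at 2.07 and the others between -3.22 and -2.81. Replicate 2 stood apart in Ddx25 (0.837), Jun (0.917), Klf6 (0.832), Mup5 (0.97), Hao3 (0.859) and Hba-a1 (0.957). It was the lowest array in 5 of these and the highest in Klf6. Among the DR1 arrays it also had the lowest 75th percentile, 186.1, and the lowest share of spots well above background, 52.5%. Replicate 3 stood apart in Slc30a10 (0.866) and Areg (0.856), replicate 4 in Myh4 (0.884) and C8g (0.914), and replicate 1 in Ela2a (0.949). For Ela2a the gap was small on the scale of the comparison, with replicate 1 at 2.35 and the others between 2.25 and 2.25, against a mean of 4.06 in DR6.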

How the results depend on the processing

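The number of called genes, 1226, ran from 1160 to 1281 when 1 array was left out. It was 304 (107 higher, 197 lower) with normexp and quantile scaling, and 0 with pools as units, where each direction was 0. Normexp here adds an offset of 50, which shrinks log2 differences of dim genes by construction. How much of the lower count comes from the offset was not tested. Median scaling moved the median of all genes to 0.093 and the share of calls that were higher to 55.4% (43.5% otherwise), with 673 higher and 542 lower, so directions near 0 are relative to that shift. Quantile scaling gave 611 higher and 608 lower. Pairing of the arrays by replicate number was weak and mixed: same-numbered arrays correlated in their deviations at 0.037, 0.2 and 0.167. DR6 replicate 1 correlated best with DR1 replicate 2 (0.071). DR6 replicates 2 and 3 correlated best with the DR1 array of the same number. A replicate block gave 1258 calls. Of 142 named genes that were called, 83 kept their call with normexp and quantile scaling, 138 with median scaling, 141 with quantile scaling, 133 with the mean of all probes, 134 with the correction for probe composition and 0 with pools as units. None of them reversed. Signs turned, with no cause tested, in genes near 0: the change of Mt2 was 0.29 (quantile), 0.21 (normexp) and -0.25 to 0.0050 (1 array left out, highest without DR1 replicate 3), the change of Hmox1 0.018 (median), 0.014 (normexp) and 0.15 (probe composition), the change of Nr4a1 0.044 (median), the change of Sesn1 -0.070 (mean of probes), the change of Fgf21 -0.021 to 0.53 (1 array left out, lowest without DR1 replicate 2), the change of Idi1 -0.026 (normexp). The change of Hba-a1 was 0.040 (median), 0.021 (quantile), 0.13 (normexp), 0.15 (probe composition) and -0.087 to 0.020 (1 array left out, highest without DR1 replicate 2). Medians turned sign under at least 1 alternative in 15 of the 48 lists, none over 0.24 in size as reported. Those whose reported median exceeded the spread between arrays were CAR and PXR targets at -0.014 (mean of probes), hepatocyte markers at 0.043 (normexp) and zonation genes at 0.039 (quantile), and others included antioxidant enzymes at 0.19 (quantile) and female-biased genes at 0.026 (quantile).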
